A study of Mus musculus with 8 samples.

Results

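The neural tube progenitor domain factors are the transcription factors whose overlapping expression divides the dividing cells of the embryonic neural tube into bands from dorsal to ventral. The 10 studied here were chosen by symbol, as known markers of these bands, and are the basic helix-loop-helix factors *Olig1* and *Olig2*, the homeodomain factors *Nkx6-1*, *Nkx6-2*, *Nkx2-2*, *Nkx2-9*, *Irx3*, *Dbx1* and *Dbx2*, and the paired and homeodomain factor *Pax6*. All 10 were found, out of 36808 genes listed. Their RNA-seq levels were read in 8 mouse libraries, to ask which of them each cell line had turned on by day 5 of a directed differentiation of embryonic stem cells (ESCs) towards spinal motor neurons (SMNs). The wild-type line E14 (129/Ola) and the line *Suz12GT* (129/Ola) share a strain background. *Suz12GT* carries a gene trap that makes a fusion of part of SUZ12 with β-galactosidase and leaves a partly working Polycomb repressive complex 2 (PRC2), the complex that places H3K27me3 on chromatin. *Suz12delta* (C57/BL6) carries a truncated *Suz12* and *Eednull* (BALB/cR1) a loss-of-function *Eed* allele, *Suz12* and *Eed* being core PRC2 genes. ESC libraries were those of E14, *Suz12delta*, *Eednull* and a further wild-type line, CJ7 (129/S), and day 5 libraries were those of E14, *Suz12GT*, *Suz12delta* and *Eednull*. LIF was withdrawn and the cells were given retinoic acid together with a Sonic Hedgehog (SHH) agonist. The cells were collected before terminal differentiation. An RNA-seq library of *Suz12GT* ESCs was not analysed here.

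In the neural tube, SHH from the notochord and floor plate forms a gradient that is highest ventrally. Some of these factors, among them *Pax6*, *Irx3* and the *Dbx* genes, are repressed by SHH, while the *Nkx* and *Olig* genes need it, and pairs of them repress each other so that the borders become sharp. *Olig2* marks the band that gives rise to motor neurons and later to oligodendrocytes, *Nkx2-2* and *Nkx2-9* mark the more ventral interneuron band beside it, *Nkx6-1* spans the ventral bands, and *Dbx1* and *Dbx2* mark bands in the middle of the tube. Genes of this kind are classic targets of PRC2 in ESCs.

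The 250 bases before the transcription start are shown for *Olig2*, *Nkx6-1* and *Dbx2*. *Olig2* had the widest range of log2(FPKM + 0.1) over the libraries. *Nkx6-1* had the most CpG dinucleotides among the factors with a matched promoter. *Nkx6-1* was also the factor called higher at day 5, past 2-fold, in every line with both stages. *Dbx2* had a level under 0.4 FPKM in every library. It had 9 CpG dinucleotides in the bases shown, against 8 for *Nkx2-2*. In the longer windows counted below, which add transcribed bases, *Dbx2* had the fewest, at 10. Sequences are those of RefSeq (promoters of GRCm38.p6), each found once by exact match on NCBI build 37, and are written from 5′ to 3′ on the strand of the gene with CpG dinucleotides in capitals. The *Olig2* stretch is chr16:91225545-91225794 on the plus strand, the *Nkx6-1* stretch is chr5:102093731-102093980 on the minus strand and the *Dbx2* stretch is chr15:95485203-95485452 on the minus strand.
Olig2: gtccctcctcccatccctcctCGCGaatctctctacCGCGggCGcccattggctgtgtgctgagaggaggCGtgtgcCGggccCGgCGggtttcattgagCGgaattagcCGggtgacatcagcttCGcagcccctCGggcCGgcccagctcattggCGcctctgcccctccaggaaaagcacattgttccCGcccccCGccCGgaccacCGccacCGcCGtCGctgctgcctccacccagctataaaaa
Nkx6-1: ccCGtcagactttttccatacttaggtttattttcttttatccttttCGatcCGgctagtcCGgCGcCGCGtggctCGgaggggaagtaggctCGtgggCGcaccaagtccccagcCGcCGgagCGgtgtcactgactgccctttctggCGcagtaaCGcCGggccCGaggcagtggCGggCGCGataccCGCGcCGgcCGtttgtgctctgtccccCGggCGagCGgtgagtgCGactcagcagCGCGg
Dbx2: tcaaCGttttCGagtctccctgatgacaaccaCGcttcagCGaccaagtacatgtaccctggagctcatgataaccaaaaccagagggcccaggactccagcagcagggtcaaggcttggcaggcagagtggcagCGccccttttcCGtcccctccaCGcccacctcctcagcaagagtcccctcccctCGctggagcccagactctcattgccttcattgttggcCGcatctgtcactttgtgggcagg

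Promoter sequences were matched for 9 of the 10 factors, the exception being *Olig1*, and gave 10 windows because *Pax6* has starts at separate places. With the first 50 transcribed bases added, a window of 300 bases held 25 CpG dinucleotides for *Olig2*, 40 for *Nkx6-1*, 32 for *Nkx6-2*, 17 for *Nkx2-2* and 10 for *Dbx2*. The median over 32851 RefSeq promoters was 7, and the windows of the 9 factors lay between 10 and 40. These counts were made after the expression values were seen and describe sequence, not methylation or binding. Motifs were searched on both strands. The homeodomain core TAATTA was in 0 of the 10 windows and in 5.29% of all promoters of this length. The E-box CAGCTG was in 0 of them and in 16.3% of all, and the E-box CATATG in 0 of them and in 3.91% of all. The GLI site GACCACCCA was in 0 of them and in 0.253% of all, and the nuclear receptor core AGGTCA in 0 of them and in 16.3% of all.

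Levels are FPKM, fragments relative to transcript length and to all mapped fragments of the library, a scale set per length on which genes can be compared. Each condition had 1 library, so no value has an error between replicates, no test was possible, and neighbouring values in any order given here cannot be told apart beyond an unknown spread. The files hold no read counts and the depth is unknown. A gene was tested in a comparison when it reached 0.1 FPKM in either library, and it was called higher or lower when the ratio, on the scale of log2(FPKM + 0.1), passed 2-fold. A gene listed at 0 in a library and tested through the other library was thus always called. In bulk samples such as these, fewer cells of a type and less RNA per cell cannot be told apart. The summed FPKM of a library ran from 389165 to 797748. In each library 0 to 5 genes had a value of 0 although all other libraries gave them 10 FPKM or more, so a value of 0 is given as listed and not as absence. *Suz12* itself, read in all libraries as a check of the labels, was at 41.3 FPKM in E14 ESCs, 53.1 FPKM in CJ7 ESCs, 6.21 FPKM in *Suz12delta* ESCs and 35.7 FPKM in *Eednull* ESCs. At day 5 *Suz12* was at 16.2 FPKM in E14, 10.3 FPKM in *Suz12GT*, 11.6 FPKM in *Suz12delta* and 17.6 FPKM in *Eednull* cells. *Eed* lay between 11.1 and 50.9 FPKM, with 42.4 FPKM in *Eednull* ESCs and 11.5 FPKM in *Eednull* day 5 cells. These gene-level values cannot show whether a truncated, fused or point-mutated protein was made.

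In wild-type E14 cells the factors of the ventral tube were under 1 FPKM in ESCs and above 1 FPKM at day 5. *Olig2*, the motor neuron progenitor factor (chr16:91225795-91228922, plus strand, NCBI build 37), was at 0.0436 FPKM in E14 ESCs and 22.1 FPKM at day 5. Its neighbour *Olig1* (chr16:91270014-91272184, plus strand), related in sequence and active in the oligodendrocyte lineage, was at 0.0532 and 9.70 FPKM. *Nkx6-1* (chr5:102087158-102094245, minus strand), needed for motor neuron formation, was at 0.109 and 13.9 FPKM. These 3 genes had log2 ratios of 7.27, 5.999 and 6.07, and the *Olig2* ratio was above those of 99.9% of the genes tested. *Nkx2-2* (chr2:147003282-147019979, minus strand), which sets the ventral interneuron band, was at 0.0660 FPKM in E14 ESCs and 4.46 FPKM at day 5, a log2 ratio of 4.78. *Nkx2-9* (chr12:57712376-57714271, minus strand), its relative in the same band, was at 0.470 and 7.19 FPKM, a log2 ratio of 3.68. The SHH-dependent factors so ran from 4.46 to 22.1 FPKM at day 5, *Nkx6-2* being the exception.

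*Nkx6-2* (chr7:146765276-146768696, minus strand), which acts alongside *Nkx6-1* and is found in a narrower band in the mouse, was at 0.649 FPKM in E14 ESCs and 1.43 FPKM at day 5, a log2 ratio of 1.03. *Pax6* (chr2:105509053-105543317, plus strand), which is broad in the tube and low in its most ventral bands, was at 8.99 FPKM in E14 ESCs and 21.9 FPKM at day 5, a log2 ratio of 1.28. *Irx3* (chr8:94322428-94325553, minus strand), which lies dorsal to *Olig2* and represses it, was at 0.670 and 7.19 FPKM, a log2 ratio of 3.24. Both SHH-repressed factors were therefore present with the ventral ones in the same culture, which holds a mixture of cells. *Dbx1* (chr7:56886869-56892219, minus strand) was listed at 0 in E14 ESCs and was at 0.258 FPKM at day 5. *Dbx2* (chr15:95453994-95486391, minus strand) was at 0.0475 and 0.0596 FPKM and did not reach the minimum. *Dbx1* and *Dbx2*, the factors of the middle bands, thus stayed under 0.3 FPKM, while the other 8 factors were above 1 FPKM at day 5.

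Of 9 factors tested, 9 were higher at day 5 and 0 lower in E14 cells, while 18.3% of the 21563 genes tested were higher and 25.8% lower. *Dbx1*, listed at 0 in E14 ESCs, could be called only as higher, and 8 factors were higher among genes above 0 in both libraries. The median log2 ratio was 3.68 for the factors tested and -0.20 for all genes tested, or -0.06 for all genes after each library was scaled to one 75th percentile. Against CJ7 ESCs in place of E14 ESCs, 6 of 10 factors were higher and 1 lower, with 23.0% and 30.2% of all genes. The log2 ratio of *Pax6* was then 0.48 and that of *Nkx6-2* 0.15, both within 2-fold, and that of *Dbx2* was -1.62. The *Olig*, *Nkx2* and *Irx3* ratios against CJ7 lay between 2.89 and 7.47.

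**Figure D1:**
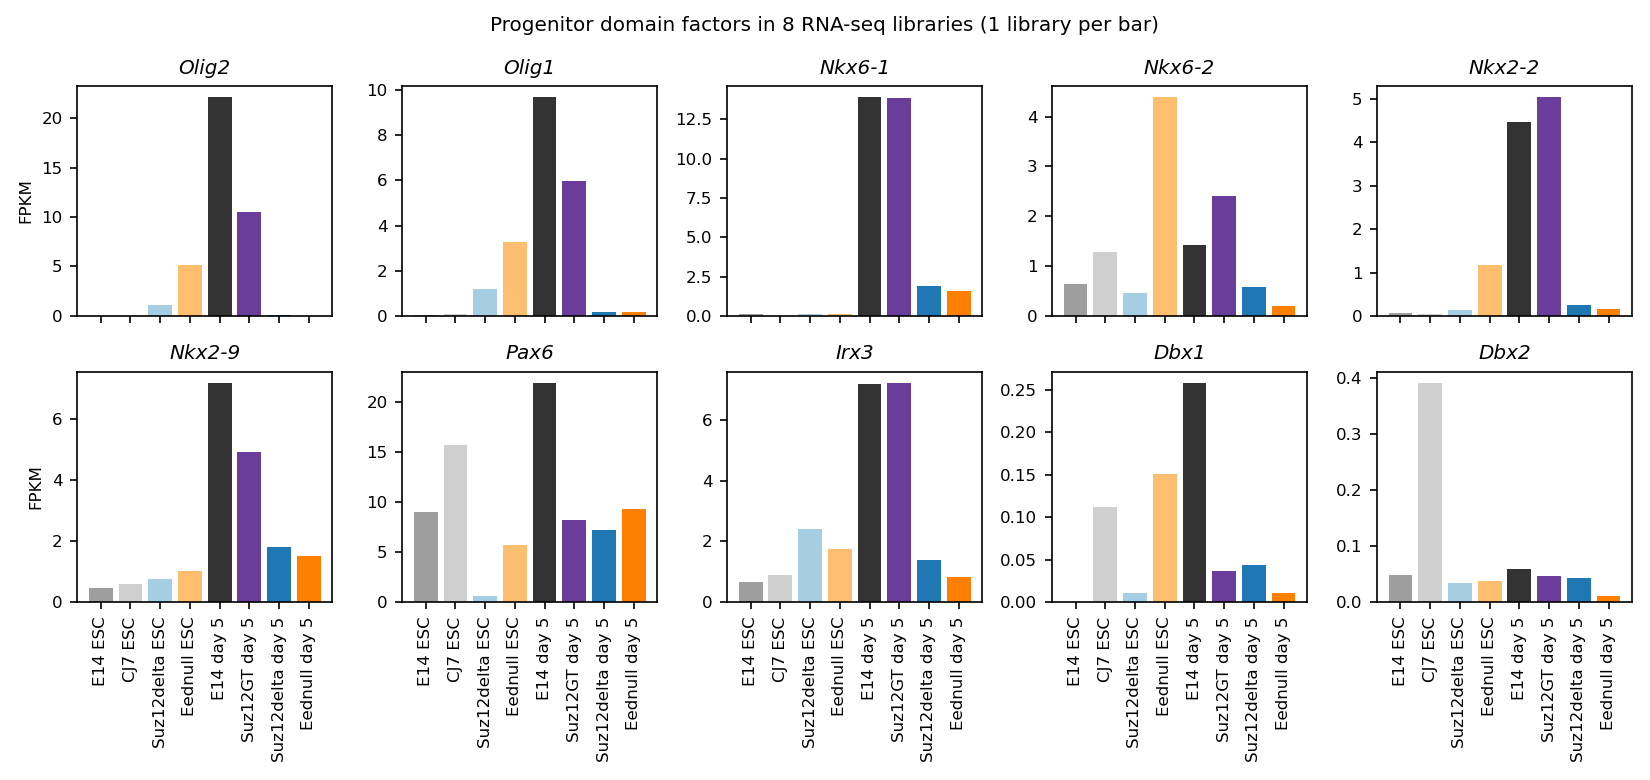
Level of each progenitor domain factor (y axis, FPKM, linear and starting at 0, with its own scale in each panel) in 8 libraries, 1 bar per library and no error bars since each condition had 1 library. *Olig2* stands at 22.1 FPKM in E14 and 10.5 FPKM in *Suz12GT* cells at day 5, at 5.19 FPKM in *Eednull* ESCs, and at 0.107 FPKM or less in *Suz12delta* and *Eednull* day 5 cells.

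*Suz12GT* day 5 cells held nearly all of the wild-type set. *Nkx6-1* was at 13.8 FPKM, *Irx3* at 7.23 FPKM and *Nkx2-2* at 5.05 FPKM in *Suz12GT* cells, against 13.9, 7.19 and 4.46 FPKM in E14 day 5 cells. *Olig2* was at 10.5 FPKM, 2.10-fold lower in FPKM than in E14 day 5 cells, and *Olig1* at 5.96 FPKM, 1.63-fold lower. *Pax6* was at 8.18 FPKM, 2.68-fold lower. *Nkx2-9* was at 4.91 FPKM, 1.46-fold lower, and *Nkx6-2* at 2.42 FPKM, 1.69-fold higher. *Dbx1* was at 0.0361 FPKM and *Dbx2* at 0.0467 FPKM, with *Dbx2* under the minimum in both libraries. The factors lower by over 2-fold were thus *Pax6*, *Olig2* and *Dbx1*, while the ventral *Nkx2-2* and *Nkx6-1* were within 1.13-fold of E14.

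Of 9 factors tested in *Suz12GT* against E14 day 5 cells, 0 were higher and 3 lower, with 16.8% of all genes tested higher and 4.40% lower. The median log2 ratio of the factors was -0.54, and that of all genes 0.13. The call for *Olig2*, at a log2 ratio of -1.06, lies close to the 2-fold line. All comparisons at day 5 use the same E14 library, and that library's own error would enter each of them.

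In *Suz12delta* and *Eednull* day 5 cells the factors fell into levels that differed by member. *Olig2* was at 0.107 FPKM in *Suz12delta* and 0.0455 FPKM in *Eednull* cells, 207-fold and 486-fold lower in FPKM than in E14 day 5 cells. *Olig1* was at 0.188 and 0.189 FPKM, 51.6-fold and 51.4-fold lower. *Nkx2-2* was at 0.242 and 0.150 FPKM, 18.4-fold and 29.7-fold lower. The 3 genes thus lay between 0.0455 and 0.242 FPKM, and in wild-type ESCs they lay between 0.0250 and 0.0774 FPKM.

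*Nkx6-1* was at 1.90 FPKM in *Suz12delta* and 1.56 FPKM in *Eednull* day 5 cells, 7.34-fold and 8.90-fold lower than in E14 day 5 cells and above the 0.109 FPKM of E14 ESCs. *Nkx2-9* was at 1.79 and 1.52 FPKM, 4.02-fold and 4.73-fold lower, and also above the 0.470 FPKM of E14 ESCs. *Irx3* was at 1.38 and 0.818 FPKM, 5.23-fold and 8.80-fold lower. *Nkx6-1* and *Nkx2-9* so had a level that *Olig2* and *Nkx2-2*, markers of neighbouring or the same bands, did not have in the same libraries. *Nkx6-2* was at 0.580 and 0.208 FPKM, 2.47-fold and 6.88-fold lower. *Dbx1* was at 0.0432 and 0.0104 FPKM and *Dbx2* at 0.0429 and 0.0101 FPKM.

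*Pax6* was the factor with the highest level in both null lines at day 5, at 7.24 FPKM in *Suz12delta* and 9.35 FPKM in *Eednull* cells, 3.03-fold and 2.35-fold lower than in E14 day 5 cells. These values are near the 8.18 FPKM of *Suz12GT* cells, so that *Pax6* did not order the mutant lines as *Olig2* did. Of the exon bases of *Pax6*, 27.9% lie in exons of *Elp4* on the opposite strand, which was at 3.70 to 11.8 FPKM. *Elp4* and *Pax6* were both highest in E14 day 5 cells, then in CJ7 ESCs, and both lowest in ESCs of the null lines. What *Elp4* reads add to the *Pax6* values given here and below was not tested. For *Nkx6-2* the share is 12.9% with *Inpp5a*, at 9.94 to 16.5 FPKM, and for *Nkx2-2* 9.67% with *Nkx2-2as*, at 0.226 FPKM or less. Whether the counting used strand is not given in the sources used here, and reads of such pairs cannot be told apart without it.

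Of 9 factors tested, 0 were higher and 9 lower in *Suz12delta* day 5 cells against E14 day 5 cells, with 26.6% of all genes higher and 9.52% lower. In *Eednull* day 5 cells likewise 0 were higher and 9 lower, with 21.6% of all genes higher and 11.3% lower. The median log2 ratio of the factors was -2.31 in *Suz12delta* and -2.99 in *Eednull* cells, where that of all genes was 0.26 and 0.08. Strain background cannot be told apart from genotype in both comparisons.

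In ESCs of the null lines several of the same factors were above their wild-type level. *Olig2* was at 1.12 FPKM in *Suz12delta* and 5.19 FPKM in *Eednull* ESCs, against 0.0436 FPKM in E14 and 0.0250 FPKM in CJ7 ESCs. *Olig1* was at 1.19 and 3.29 FPKM, against 0.0532 and 0.0774 FPKM. *Nkx2-2* was at 0.133 FPKM in *Suz12delta* and 1.17 FPKM in *Eednull* ESCs, against 0.0660 FPKM in E14 and 0.0482 FPKM in CJ7 ESCs. In *Eednull* ESCs all 3 were over 10 times their wild-type level, and in *Suz12delta* ESCs both *Olig* genes were.

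*Nkx6-2* was at 4.40 FPKM in *Eednull* ESCs, its highest level in any library, and at 0.466 FPKM in *Suz12delta*, 0.649 FPKM in E14 and 1.28 FPKM in CJ7 ESCs. *Irx3* was at 2.41 FPKM in *Suz12delta* and 1.74 FPKM in *Eednull* ESCs, against 0.670 FPKM in E14 and 0.882 FPKM in CJ7 ESCs. *Nkx6-1*, by contrast, was at 0.143 and 0.114 FPKM in the null lines and at 0.109 FPKM in E14, and was listed at 0 in CJ7 ESCs. The factor with the most CpG dinucleotides at its start was thus at 0.143 FPKM or less in all 4 ESC libraries. *Nkx6-2*, with the next most at 32, was at 0.466 to 4.40 FPKM in them. A link between CpG count and level was not tested. *Nkx2-9* was at 0.752 FPKM in *Suz12delta*, 1.0002 FPKM in *Eednull*, 0.470 FPKM in E14 and 0.599 FPKM in CJ7 ESCs. *Dbx1* was at 0.0109 FPKM in *Suz12delta*, 0.150 FPKM in *Eednull* and 0.112 FPKM in CJ7 ESCs. *Dbx2* was at 0.0331 and 0.0380 FPKM in the null lines and reached its highest value, 0.392 FPKM, in CJ7 ESCs.

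*Pax6* went the other way in *Suz12delta* ESCs, at 0.615 FPKM, 14.6-fold lower in FPKM than in E14 ESCs. In *Eednull* ESCs it was at 5.69 FPKM, and in CJ7 ESCs at 15.7 FPKM. The *Suz12delta* ESC value is the lowest of *Pax6* in the 8 libraries. Of 10 pan-neural progenitor genes tested in that library, 3 were higher and 4 lower than in E14 ESCs. Of 8 pluripotency genes, 0 were higher and 6 lower.

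In *Suz12delta* against E14 ESCs, 3 of 8 factors tested were higher (*Irx3*, *Olig1* and *Olig2*) and 1 lower (*Pax6*), with 18.0% of all genes higher and 22.8% lower. In *Eednull* against E14 ESCs, 6 of 9 were higher (*Irx3*, *Dbx1*, *Nkx6-2*, *Olig1*, *Olig2* and *Nkx2-2*) and 0 lower, with 22.4% of all genes higher and 11.9% lower. Here *Dbx1*, listed at 0 in E14 ESCs, could be called only as higher. The median log2 ratio of the factors was 0.53 and 1.32, and that of all genes -0.28 and 0.04. By its label, CJ7 was processed alongside the library whose name begins the *Eednull* ESC column, to serve as its wild-type control. Against CJ7, 5 of 10 factors were higher in *Eednull* ESCs (*Olig1*, *Olig2*, *Nkx2-2*, *Nkx6-2* and *Nkx6-1*) and 2 lower (*Pax6* and *Dbx2*), with 20.5% of all genes higher and 10.7% lower. Because *Nkx6-1* was listed at 0 in CJ7 ESCs, it could be called only as higher. The log2 ratios to CJ7 were 5.40 for *Olig2*, 4.26 for *Olig1*, 3.10 for *Nkx2-2* and 1.71 for *Nkx6-2*, and *Irx3* at 0.91 was within 2-fold. In *Suz12delta* against CJ7 ESCs, 4 factors were higher and 3 lower, with 21.1% and 24.0% of all genes.

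The wild-type ESC libraries also differed from each other. In CJ7 against E14 ESCs, 2 of 7 factors tested were higher (*Dbx1*, listed at 0 in E14, and *Dbx2*) and 1 lower (*Nkx6-1*, listed at 0 in CJ7), with 15.7% of all genes higher and 14.7% lower. The calls of *Dbx1* and *Nkx6-1* were fixed by the value of 0 once the genes were tested. *Pax6* was 1.75-fold and *Nkx6-2* 1.97-fold higher in CJ7, both within 2-fold. The *Olig* genes and *Nkx2-2* were under 0.1 FPKM in both wild-type ESC lines. ESCs were grown on irradiated mouse embryonic fibroblasts that were removed by plating. The summed level of 12 fibroblast genes, among them *S100a4* and *Col1a2*, was 121 FPKM in E14, 131 FPKM in CJ7, 861 FPKM in *Suz12delta* and 308 FPKM in *Eednull* ESCs, with 0 of the 12 at 0. In *Suz12delta* ESCs 11 of the 12 were higher than in E14 and in *Eednull* ESCs 3 of the 12. The part of these other cells in the levels of the domain factors in *Suz12delta* and *Eednull* ESCs was not tested.

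Over differentiation the null lines therefore started from other levels than E14, and several factors moved in the opposite direction. *Olig2* went from 1.12 to 0.107 FPKM in *Suz12delta* cells, 10.5-fold lower, and from 5.19 to 0.0455 FPKM in *Eednull* cells, 114-fold lower. *Olig1* was 6.34-fold and 17.4-fold lower at day 5 than in ESCs of the same line. In *Eednull* cells *Nkx6-2* was 21.1-fold, *Nkx2-2* 7.78-fold, and *Irx3* 2.13-fold lower at day 5. E14 cells had higher levels of every one of these genes at day 5.

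*Nkx6-1* was the factor that passed 2-fold higher at day 5 in all 3 lines with both stages, by 128-fold in E14, 13.3-fold in *Suz12delta* and 13.7-fold in *Eednull* cells. *Nkx2-9* was 15.3-fold higher in E14, 2.38-fold higher in *Suz12delta* and 1.52-fold higher in *Eednull* cells. *Pax6* was 2.44-fold higher in E14, 11.8-fold higher in *Suz12delta* and 1.64-fold higher in *Eednull* cells. The large *Pax6* ratio of *Suz12delta* cells starts from the low ESC value of 0.615 FPKM and not from a high day 5 value.

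Of 8 factors tested in *Suz12delta* cells, 3 were higher at day 5 (*Pax6*, *Nkx6-1* and *Nkx2-9*) and 2 lower (*Olig1* and *Olig2*), with 26.9% of all genes higher and 12.6% lower. Of 9 tested in *Eednull* cells, 1 was higher (*Nkx6-1*) and 6 lower (*Irx3*, *Dbx1*, *Nkx6-2*, *Olig1*, *Olig2* and *Nkx2-2*), with 18.4% of all genes higher and 24.8% lower. The median log2 ratio of the factors was 0.41 in *Suz12delta* and -1.18 in *Eednull* cells, and that of all genes 0.43 and -0.08. After scaling to one 75th percentile the median of all genes in *Suz12delta* cells was 0.06, *Nkx2-9* at 0.80 was within 2-fold, and *Irx3* at -1.13 was lower. The fibroblast sum went from 861 to 112 FPKM in *Suz12delta* and from 308 to 58.3 FPKM in *Eednull* cells, and its part in these changes was not tested. By the labels the *Eednull* ESC library may also be of another batch than the day 5 libraries, and batch and stage cannot then be told apart in that line.

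**Figure D2:**
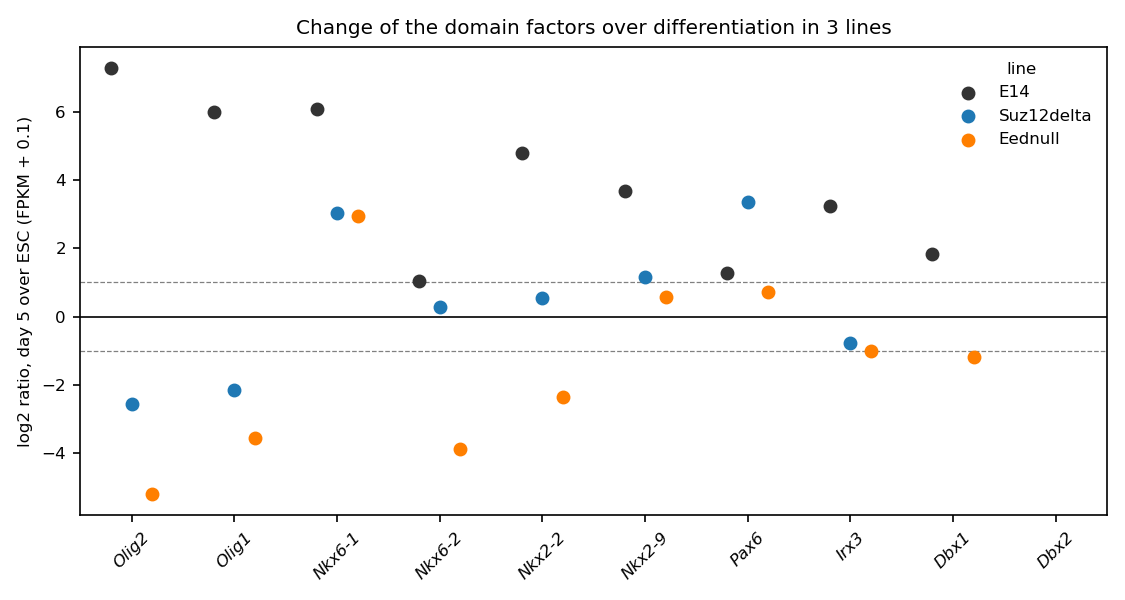
Log2 ratio of day 5 to ESC level of each factor, with 0.1 FPKM added to both (y axis), in E14 (black), *Suz12delta* (blue) and *Eednull* (orange) cells, 1 library per stage. Dashed lines mark 2-fold, and factors under 0.1 FPKM in both libraries have no point. *Olig2* stands at 7.27 in E14, -2.56 in *Suz12delta* and -5.18 in *Eednull* cells, while *Nkx6-1* is above the upper line in all 3 lines.

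The make-up of the set differed with line and stage as well as its total. The 10 factors summed to 88.3 FPKM in E14 and 58.2 FPKM in *Suz12GT* day 5 cells, and to 13.5 and 13.9 FPKM in *Suz12delta* and *Eednull* day 5 cells. In ESCs they summed to 11.1 FPKM in E14, 19.1 FPKM in CJ7, 6.87 FPKM in *Suz12delta* and 22.8 FPKM in *Eednull*. *Eednull* was thus the line with more of these factors in ESCs than at day 5.

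*Pax6* made up 81.0% of the sum in E14 and 82.2% in CJ7 ESCs, 8.94% in *Suz12delta* and 25.0% in *Eednull* ESCs. At day 5 its share was 24.9% in E14, 14.1% in *Suz12GT*, 53.6% in *Suz12delta* and 67.4% in *Eednull* cells. The *Olig* pair made up 36.1% in E14, 28.3% in *Suz12GT*, 2.18% in *Suz12delta* and 1.69% in *Eednull* day 5 cells, and 33.6% and 37.2% in *Suz12delta* and *Eednull* ESCs. The *Olig* share of the null ESCs was therefore near that of E14 cells at day 5, but the levels were not. The pair summed to 2.31 FPKM in *Suz12delta* and 8.48 FPKM in *Eednull* ESCs, against 31.8 FPKM in E14 day 5 cells. The *Nkx6* pair was at 17.4%, 27.9%, 18.3% and 12.8% in E14, *Suz12GT*, *Suz12delta* and *Eednull* day 5 cells, and the *Nkx2* pair at 13.2%, 17.1%, 15.0% and 12.1%. The shares of these pairs spread less over the day 5 libraries than those of *Pax6* and the *Olig* pair. Within the *Nkx2* pair the members went opposite ways. In the same order of libraries, the *Nkx2-2* share was 5.05%, 8.67%, 1.79% and 1.08%. That of *Nkx2-9* was 8.14%, 8.44%, 13.2% and 10.97%. The *Nkx2* pair share therefore does not show that *Nkx2-2* kept its part in the null lines.

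**Figure D3:**
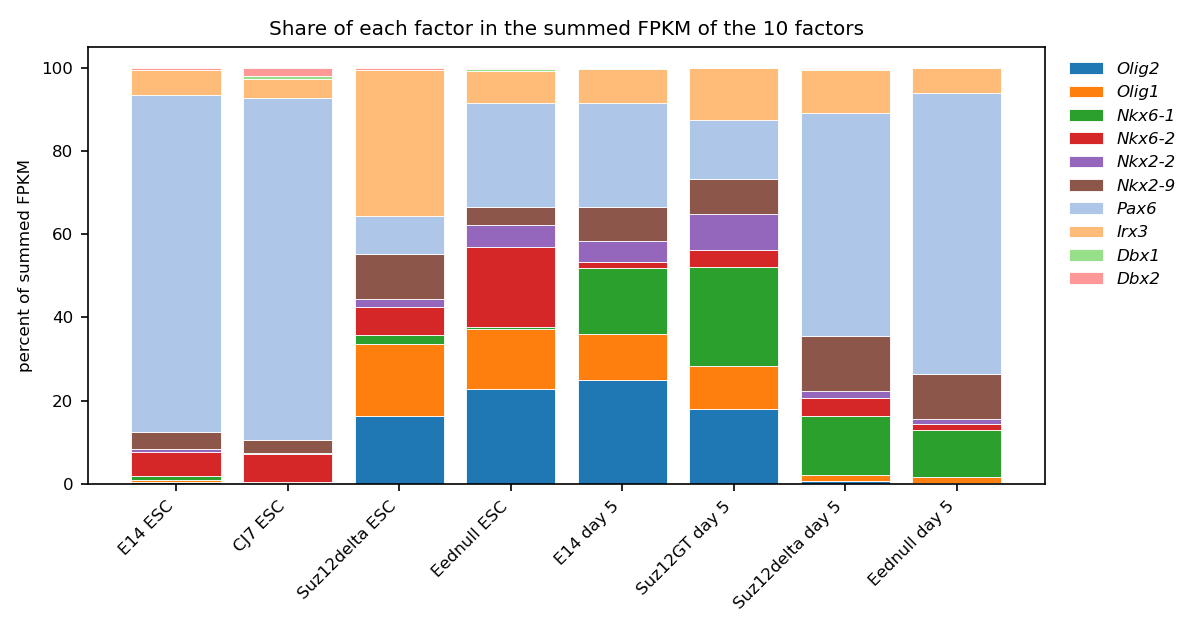
Share of each factor in the summed FPKM of the 10 factors (y axis, percent) in each library, stacked to 100, with 1 library per bar. *Pax6* takes 81.0% and 82.2% of the wild-type ESC bars and 53.6% and 67.4% of the *Suz12delta* and *Eednull* day 5 bars, while the *Olig* pair takes 36.1% of the E14 day 5 bar and 1.69% of the *Eednull* one.

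Within a library, the ratio of one factor to another does not depend on the total of the library. The pairs here were picked after the values were seen. *Olig2* was at 4.96 times the FPKM of *Nkx2-2* in E14 and 2.09 times in *Suz12GT* day 5 cells, and at 0.442 and 0.303 times in *Suz12delta* and *Eednull* day 5 cells. *Olig2* was at 3.08 times the FPKM of *Irx3*, the factor it opposes at the dorsal border of the motor neuron band, in E14 and at 1.46 times in *Suz12GT* cells, and at 0.0778 and 0.0556 times in the null lines. *Nkx6-1* was at 0.629 times the FPKM of *Olig2* in E14, 1.31 times in *Suz12GT*, 17.7 times in *Suz12delta* and 34.4 times in *Eednull* cells. Within the *Olig* pair, *Olig2* was the higher in E14 and *Suz12GT* day 5 cells, at 2.28 and 1.77 times *Olig1*, and the lower in both null lines, at 0.570 and 0.241 times. The *Olig* values of the null lines are all under 0.2 FPKM.

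The levels of SHH target and retinoic acid response genes at day 5 did not follow the factors. Of 3 direct SHH targets (*Gli1*, *Ptch1* and *Hhip*), 0 were higher and 0 lower than in E14 in *Suz12delta* and in *Eednull* day 5 cells, and 1, *Gli1*, was lower in *Suz12GT* cells. *Ptch1*, which encodes the SHH receptor, was at 68.9 FPKM in E14, 55.3 FPKM in *Suz12GT*, 72.8 FPKM in *Suz12delta* and 64.9 FPKM in *Eednull* day 5 cells. *Gli1*, which encodes a transcription factor that the pathway induces, was at 10.6, 3.53, 15.7 and 11.01 FPKM in the same order. At day 5 these SHH targets were thus within 2-fold of E14 in the null lines, where *Olig2* and *Nkx2-2* were far below it, and were lowest among the day 5 libraries in *Suz12GT* cells, where both were present. In ESCs *Gli1* was at 11.3 FPKM in E14, 1.43 FPKM in *Suz12delta* and 2.49 FPKM in *Eednull*. Over differentiation 1 of the 3 was higher in E14 and 3 in each null line. Of all genes, 18.3% were higher in E14, 26.9% in *Suz12delta* and 18.4% in *Eednull* cells. Like day 5 levels are therefore not like changes, and the response to the agonist was not tested.

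Of 7 retinoic acid response genes, 2 were higher and 0 lower in *Suz12GT*, 4 higher and 2 lower in *Suz12delta*, and 3 higher and 2 lower in *Eednull* day 5 cells. *Dhrs3*, a retinaldehyde reductase gene induced by retinoic acid, was at 13.1 FPKM in E14, 57.4 FPKM in *Suz12GT*, 141 FPKM in *Suz12delta* and 170 FPKM in *Eednull* day 5 cells. *Crabp2*, which encodes a retinoic acid binding protein, was at 104, 54.4, 27.4 and 20.1 FPKM. The list so held genes that moved against each other.

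Other domain genes and the progeny of the motor neuron band moved as the factors did in the null lines. Of 10 further progenitor genes of the ventral and intermediate tube, 1 was higher and 8 lower in *Suz12delta*, 2 higher and 8 lower in *Eednull*, and 2 higher and 5 lower in *Suz12GT* day 5 cells. *Neurog2*, the proneural gene that acts with *Olig2* in motor neuron progenitors, was at 20.7 FPKM in E14, 7.89 FPKM in *Suz12GT*, 0.0450 FPKM in *Suz12delta* and 0.0398 FPKM in *Eednull* day 5 cells. Of 7 genes of postmitotic motor neurons, 0 were higher and 7 lower in each null line, and 0 and 0 in *Suz12GT* cells. *Lhx3*, a motor neuron homeodomain gene, was at 25.8 FPKM in E14, 25.3 FPKM in *Suz12GT*, 2.52 FPKM in *Suz12delta* and 0.356 FPKM in *Eednull* day 5 cells. *Slit2*, which encodes an axon guidance ligand made by motor neurons and the floor plate, was at 25.6, 35.7, 6.60 and 6.02 FPKM.

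Genes on either side of the ventral bands gave other patterns. Of 8 floor plate genes, 8 were higher and 0 lower in *Suz12GT*, 4 higher and 4 lower in *Suz12delta*, and 4 higher and 3 lower in *Eednull* day 5 cells. *Ntn1*, which encodes the axon guidance ligand netrin-1, was at 23.5 FPKM in E14, 57.0 FPKM in *Suz12GT*, 5.34 FPKM in *Suz12delta* and 7.39 FPKM in *Eednull* cells. *Shh*, named here because it is the ligand of the pathway, was at 1.71, 10.4, 9.06 and 8.84 FPKM. *Foxa2*, the floor plate and endoderm factor, was at 2.96, 11.8, 12.0 and 13.5 FPKM. The higher floor plate genes of *Suz12GT* cells stood beside wild-type-like levels of *Nkx6-1* and *Nkx2-2*, and those of the null lines stood beside low ones.

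Of the dorsal progenitor genes, 8 of 11 tested were higher and 2 lower in *Suz12delta*, 7 of 9 higher and 2 lower in *Eednull*, and 3 of 6 higher and 0 lower in *Suz12GT* day 5 cells. *Zic1*, a dorsal neural zinc finger gene, was at 0.203 FPKM in E14, 3.54 FPKM in *Suz12GT*, 6.68 FPKM in *Suz12delta* and 6.69 FPKM in *Eednull* cells. Of the forebrain and midbrain genes, 7 of 7 tested were higher in each null line and 3 of 4 higher and 1 lower in *Suz12GT* cells. *Lhx2*, a forebrain homeodomain gene, was at 0.371 FPKM in E14, 0.0575 FPKM in *Suz12GT*, 3.28 FPKM in *Suz12delta* and 3.58 FPKM in *Eednull* day 5 cells. In the null lines most of these genes that were tested were called higher than in E14, beside lower domain factors. In E14 day 5 cells 6 of the 12 dorsal and 3 of the 8 forebrain and midbrain genes were listed at 0. Such genes could enter these counts only as higher, so the counts were in part fixed by the minimum. Of all genes, 26.6% were higher and 9.52% lower in *Suz12delta*, 21.6% and 11.3% in *Eednull*, and 16.8% and 4.40% in *Suz12GT* day 5 cells. Over differentiation, 4 of 7 forebrain and midbrain genes tested were higher and 1 lower in *Suz12delta* cells. In *Eednull* cells 0 of 8 were higher and 2 lower. Which cells held these genes was not tested.

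Markers of other cells moved with the lines too. Of the pan-neural progenitor genes, 2 of 10 tested were higher and 7 lower than in E14 in each null line at day 5, and 2 of 9 higher and 1 lower in *Suz12GT* cells. Among them *Sox2* was at 20.7 FPKM in E14, 22.2 FPKM in *Suz12GT*, 3.70 FPKM in *Suz12delta* and 5.63 FPKM in *Eednull* cells. All endoderm and pancreas genes tested were called higher than in E14, 9 of 9 in *Suz12GT* and 7 of 7 in each null line. Of the 10 genes, 4 were listed at 0 in E14 day 5 cells and could be called only as higher. Summed levels were 4.43 FPKM in E14, 34.7 FPKM in *Suz12GT*, 48.9 FPKM in *Suz12delta* and 44.2 FPKM in *Eednull* cells. Several domain factors, *Nkx2-2*, *Nkx6-1*, *Nkx6-2* and *Pax6* among them, are also expressed in the embryonic pancreas, and *Foxa1* and *Foxa2* are in both the floor plate and the endoderm list.

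Summed levels of 8 pluripotency genes at day 5 were 1.35 FPKM in E14, 12.4 FPKM in *Suz12GT*, 19.5 FPKM in *Suz12delta* and 7.85 FPKM in *Eednull* cells, and those of 12 fibroblast genes were 2.26, 19.8, 112 and 58.3 FPKM. The pluripotency genes summed to 500 FPKM in *Suz12delta* ESCs and to 925 to 1169 FPKM in the other ESC libraries. The part of these cells in the levels of the domain factors was not tested. *Sox10*, the defining factor of oligodendrocyte precursors, in which the *Olig* genes are also active, was at 0.285 FPKM or less in all 8 libraries. *Pdgfra*, a receptor gene of those precursors and of mesenchyme, was at 0.135 FPKM in E14 and 11.7 FPKM in *Suz12delta* day 5 cells, the opposite order to *Olig2*.

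**Figure D4:**
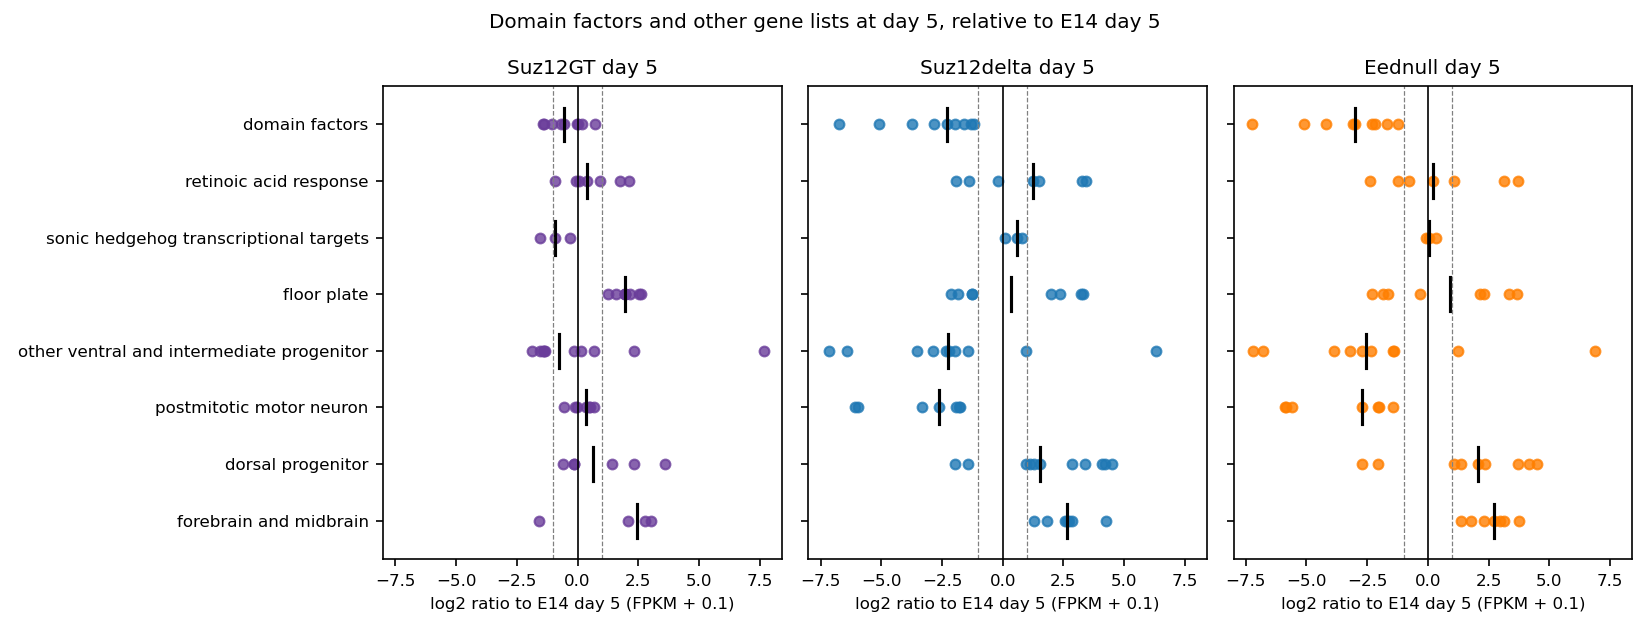
Log2 ratio to E14 day 5 (x axis, 0.1 FPKM added) of the domain factors and of 7 gene lists in *Suz12GT*, *Suz12delta* and *Eednull* day 5 cells, with 1 point per gene tested, a black bar at the median of the row and dashed lines at 2-fold. The domain factors, the other ventral progenitor genes and the motor neuron genes have medians of -2.31, -2.27 and -2.62 in *Suz12delta* cells, while the SHH targets have 0.57 and the forebrain and midbrain genes 2.66.

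To see which other genes had the profile of a factor over the 8 libraries, log2(FPKM + 0.1) was centred on its mean per gene, and the mean absolute difference from the factor was taken over 18537 genes that reached 1 FPKM in at least 1 library. Among them *Olig1* was the most like *Olig2*, with a mean absolute difference of 0.61 log2 units, followed by *Gm17616*, *Neurog1*, *Fam131b* and *Fgfbp3*. *Nkx2-2* was the 11th most like *Olig2* and *Pax6* the 16052nd. For *Nkx2-2* the nearest genes were *Gm16010*, *Gm12828*, *Gm12237*, *Grm4* and *Ptprn2*, at differences of 0.35 to 0.45. *Grm4*, a glutamate receptor gene, was at 5.40 FPKM in E14 and 6.03 FPKM in *Suz12GT* day 5 cells, and at 0.602 FPKM or less in the other 6 libraries. For *Pax6* they were *Gm12932*, *Itgb3bp*, *Hist1h2ao*, *Hist1h2ap* and *2700023E23Rik*, at 0.44 to 0.48. *Hist1h2ao* and *Hist1h2ap* have identical values in every library and count as 1 measurement. *Pax6* was thus the factor whose profile over lines and stages stood apart from those of *Olig2* and *Nkx2-2*, whose ranks among its own neighbours were 18447 and 16722 of 18537.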

How the data were processed

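The authors aligned the RNA-seq reads with TopHat 1.3.2 and Bowtie 0.12.7 and deposited FPKM values per gene, estimated with Cufflinks 1.2.1 and Cuffdiff on NCBI build 37 with Ensembl genes, adjusting for sequence bias and for multiply mapping reads. Column names and labels together gave each of the 8 columns its condition. Low values were searched for steps of single reads, but the commonest ratio was shared by at most 1.37% of low genes, so depth could not be recovered and no count test was possible.

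From these values log2 ratios were computed with a pseudocount of 0.1 FPKM, which understates changes of low genes, and 2-fold was the limit of a call. Folds in the text are of FPKM as deposited. Positions and exon overlaps are from GENCODE vM1. Named genes were all 10 members, up to 2 genes at the highest FPKM of each other list, genes that a sentence on a member needs, and the 5 genes most like *Olig2*, *Pax6* and *Nkx2-2*. The members and lists were chosen with earlier results of these data known. *Sox1* and *Slc18a3* were not found under those symbols, and 2 genes of the lists are not reported here. The steps were tested on simulated data. Alternatives were a pseudocount of 1 or 0.01, no minimum or one of 1 FPKM, 4-fold, scaling to one 75th percentile over 17842 genes, CJ7 as the wild-type ESC, leaving *Olig2* out of the sum of the factors, and, chosen after seeing the data, genes above 0 in both libraries and E14 ESCs as day 0 for the null lines. Python 3.11.15, pandas 2.3.3, NumPy 2.4.6 and matplotlib 3.10.9 were used.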

Additional observations from a re-analysis of the deposited data

Results flagged for a closer look

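Several factors had a lower level at day 5 than in ESCs of the same null line, while every one of them had a higher level at day 5 in E14 cells. The difference between lines was not tested, since each stage of each line had 1 library. In *Suz12delta* cells the log2 ratio of day 5 to ESCs, with 0.1 FPKM added, was -2.56 for *Olig2*, -2.17 for *Olig1* and -0.77 for *Irx3*. In *Eednull* cells it was -5.18 for *Olig2*, -3.55 for *Olig1*, -3.87 for *Nkx6-2*, -2.34 for *Nkx2-2*, -1.18 for *Dbx1* and -1.005 for *Irx3*. The *Irx3* value of *Suz12delta* cells is within 2-fold, and *Dbx1* was at 0.150 FPKM or less at both stages of *Eednull* cells.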

How the results depend on the processing

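No paired analysis was possible because each group had 1 library. Counts are of factors past 2-fold unless another limit is named. With a pseudocount of 1 FPKM, 0 factors were lower over *Suz12delta* differentiation, 3 over *Eednull* differentiation, and 0 were higher and 0 lower in CJ7 against E14 ESCs. With E14 ESCs as day 0, 0 were lower in *Suz12delta* day 5 cells, and 2 were higher and 1 lower in *Eednull* day 5 cells. The log2 ratios of *Pax6*, *Olig2* and *Olig1* then reversed to -0.31, 0.53 and 0.91 in *Suz12delta* cells, and those of *Nkx2-2*, *Irx3* and *Olig1* to 0.59, 0.25 and 0.91 in *Eednull* cells, since the starting library is another. With CJ7 as the wild-type ESC, 1 factor was lower in wild-type day 5 cells, 3 in *Suz12delta* ESCs and 2 in *Eednull* ESCs. At 4-fold, 0 were lower in *Suz12GT* and 5 in *Suz12delta* day 5 cells. In CJ7 against E14 ESCs, 4 were higher and 0 lower after 75th percentile scaling, 0 and 0 at a minimum of 1 FPKM and at 4-fold, and 1 and 0 among genes above 0 in both libraries. The cause was not tested. Without *Olig2* in the sum, the *Pax6* share was 10.7% in *Suz12delta* and 32.4% in *Eednull* ESCs, and 33.2% in E14 and 17.2% in *Suz12GT* day 5 cells. The main limits are 1 library per group and unknown depth, which leave *Dbx1*, *Dbx2* and every value under about 0.1 FPKM without a known error.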
